A study of Mus musculus with 82 samples.

Results

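The cytosolic ribosomal protein genes encode the proteins of the large and small subunits of the ribosome outside the mitochondria. They were taken from the RefSeq gene table of the mouse GRCm38.p6 assembly as protein-coding genes whose symbol is Rpl or Rps followed by a number, with an optional letter or l, together with Rplp0, Rplp1, Rplp2 and Rpsa. Kinases of the Rps6k family and pseudogenes were left out. This gave 82 genes of 21887 protein-coding genes on chromosomes 1 to 19, X and Y, of which 51 belong to the large subunit and 31 to the small subunit. They lie on chromosomes 1 to 18 and on X, with 14 on chromosome 7, 4 on X and 2 on chromosome 18.

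The series reprogrammed mouse embryonic fibroblasts, labelled OG2-MEFs, toward pluripotency with retroviruses that carry OSKM, the factors Oct4, Sox2, Klf4 and c-Myc. ATAC-seq, in which a transposase inserts sequencing adapters into accessible chromatin, was run on 8 of the 82 samples of the series. The 4 groups were OSKM with overexpressed RNase H1(D209N) at day 7, the same at day 3, OSKM with Flag at day 7 and the same at day 3. All 4 groups received OSKM, and Flag was read as the control that the design text names. RNase H1 cuts the RNA strand of RNA:DNA hybrids, and D209N is a substitution in its catalytic site. Each group had 2 replicates but 1 deposited peak list, so no spread between replicates could be computed, no test was possible and no p-value is given. A peak here is a listed interval with a start and an end, and its width in base pairs (bp) was the one quantity that could be compared. Absence from a list is not a measure of closed chromatin, since neither read depth nor a calling threshold is given in the labels or the files. Infected fibroblast cultures are mixed populations, and in bulk samples fewer accessible cells and less accessible chromatin per cell cannot be told apart.

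Ribosomal proteins are made in fixed proportion in every growing cell, and their genes are a standard example of constantly active promoters. Their mRNAs usually begin with a cytosine followed by an unbroken run of pyrimidines, the terminal oligopyrimidine or TOP motif, through which the mTOR pathway sets their translation. Most have no textbook TATA box, and transcription begins inside the pyrimidine run.

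RefSeq start sites were matched for 62 of the 82 genes through the promoter table of GRCm38.p6. These genes have 74 start sites in it, since several have alternative starts. At 14 start sites, each of a different gene, the start base was C and the next 4 bases were all C or T. The 5 longest such runs among starts that lay inside a peak in all 4 lists are shown first, because they carry the TOP motif in its plainest form. Rpl32l, a copy with no peak in any list, follows them. Each stretch holds 15 bases before the start and 20 bases from it, written 5′ to 3′ on the gene's own strand, and capitals mark the run of C and T through the start base.
Rpl35 (chr2:39005112-39005146, minus strand): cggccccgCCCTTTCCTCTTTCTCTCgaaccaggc
Rpl15 (chr14:18270967-18271001, minus strand): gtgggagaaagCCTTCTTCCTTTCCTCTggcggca
Rpl14 (chr9:120571502-120571536, plus strand): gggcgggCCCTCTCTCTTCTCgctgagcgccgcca
Rpl35a (chr16:33056467-33056501, plus strand): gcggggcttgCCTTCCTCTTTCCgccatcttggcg
Rps10 (chr17:27635225-27635259, minus strand): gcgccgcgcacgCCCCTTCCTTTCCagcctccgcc
Rpl32l (chr10:20208424-20208458, plus strand): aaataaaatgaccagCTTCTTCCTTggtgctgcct
The run reached 18 bases in Rpl35, 17 in Rpl15, 14 in Rpl14, 13 in Rpl35a and 13 in Rps10, against 10 in Rpl32l. So a start of this form stood both at genes with a peak in all 4 lists and at a gene with none.

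Such pyrimidine starts were more frequent among the ribosomal protein genes than among all coding-gene promoters with the same peak status, the family's own included. Of the 63 start sites of the family that lay inside a peak in all 4 lists, 12 (19%) had C at the start base and 4 following pyrimidines, against 189 of 9096 coding-gene starts of that kind (2.08%). CTTTC stood between 15 bases before and 20 bases after the start, on the gene's strand, at 16 of the 63 starts (25.4%) and at 329 of the 9096 (3.62%). A run of 7 or more C or T in the same window was found at 32 of the 63 starts (50.8%) and at 1724 of the 9096 (19%). The median longest run was 7 bases at the 63 starts of the family and 4 bases at the 9096. Over all starts in the table, whatever their peak status, it was 7 bases at the 74 of the family and 5 bases at the 21263 of coding genes.

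Other promoter words, searched on both strands over the 250 bases before and 50 bases after the start, differed by fewer percentage points. CCGGAAG, the core that ETS factors bind, was present at 23 of the 63 starts (36.5%) and at 1971 of the 9096 (21.7%). ATGGCGG, part of the word that YY1 binds, was present at 12 (19%) and at 857 (9.42%). GGGCGG, the GC box, was present at 40 (63.5%) and at 6552 (72.0%), and CCAAT at 22 (34.9%) and at 3767 (41.4%). CACGTG, the E-box that Myc proteins bind, was present at 7 (11.1%) and at 992 (10.9%). TATAAA, searched on the gene's strand 40 to 15 bases before the start, was at 0 of the 63 and at 71 of the 9096 (0.781%), while the shorter TATAA was at 3 (4.76%) and at 116 (1.28%). The octamer ATGCAAAT, which Oct4 and related factors bind, was at 0 of the 63 and at 138 of the 9096 (1.52%). Median GC content over the 300 bases was 59% at the 63 starts of the family and 62.3% at the 9096, and the median number of CpG was 22 and 23. Over all starts in the table the order was the other way, with 57.8% GC and 21 CpG in the family and 56.3% GC and 13 CpG over coding genes. A match is a stretch of letters and not a bound site.

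Nearly the whole family carried a peak in every list, as the majority of other translation genes did. A peak within 1 kb of either annotated gene end, called a gene-end peak, was listed for 77 of the 82 genes (93.9%) in D209N at day 7, 76 (92.7%) in D209N at day 3, 76 (92.7%) in Flag at day 7 and 76 (92.7%) in Flag at day 3. Over all coding genes the shares were 60.4% in D209N at day 7, 51.7% in D209N at day 3, 61.5% in Flag at day 7 and 55.9% in Flag at day 3. In all 4 lists, 75 ribosomal protein genes (91.5%) had a gene-end peak, against 50.6% of coding genes, 5 had one in none, against 37% of coding genes, and 2 had one in some.

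Other gene lists stood at similar shares. A gene-end peak was present in all 4 lists for 72 of 78 mitochondrial ribosomal protein genes (92.3%), 63 of 71 genes of initiation and elongation factors (88.7%), 36 of 40 proteasome subunit genes (90%) and 33 of 36 ribosome assembly genes (91.7%). The ribosomal protein genes are short, with a median length of 3169.5 bp against 17169 bp over all coding genes. Among the 3024 other coding genes between 1533 and 5354 bp long, 51.2% had a gene-end peak in D209N at day 7, 41.9% in D209N at day 3, 52.3% in Flag at day 7 and 45.8% in Flag at day 3. The share of the family was thus higher than that of coding genes of similar length and close to that of the other 4 lists. It varied little between peak lists, as it did in those gene lists, whose shares also stand near their ceiling: 93.6% to 96.2% in mitochondrial ribosomal protein genes and 90% to 92.5% in proteasome subunit genes.

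**Figure D1:**
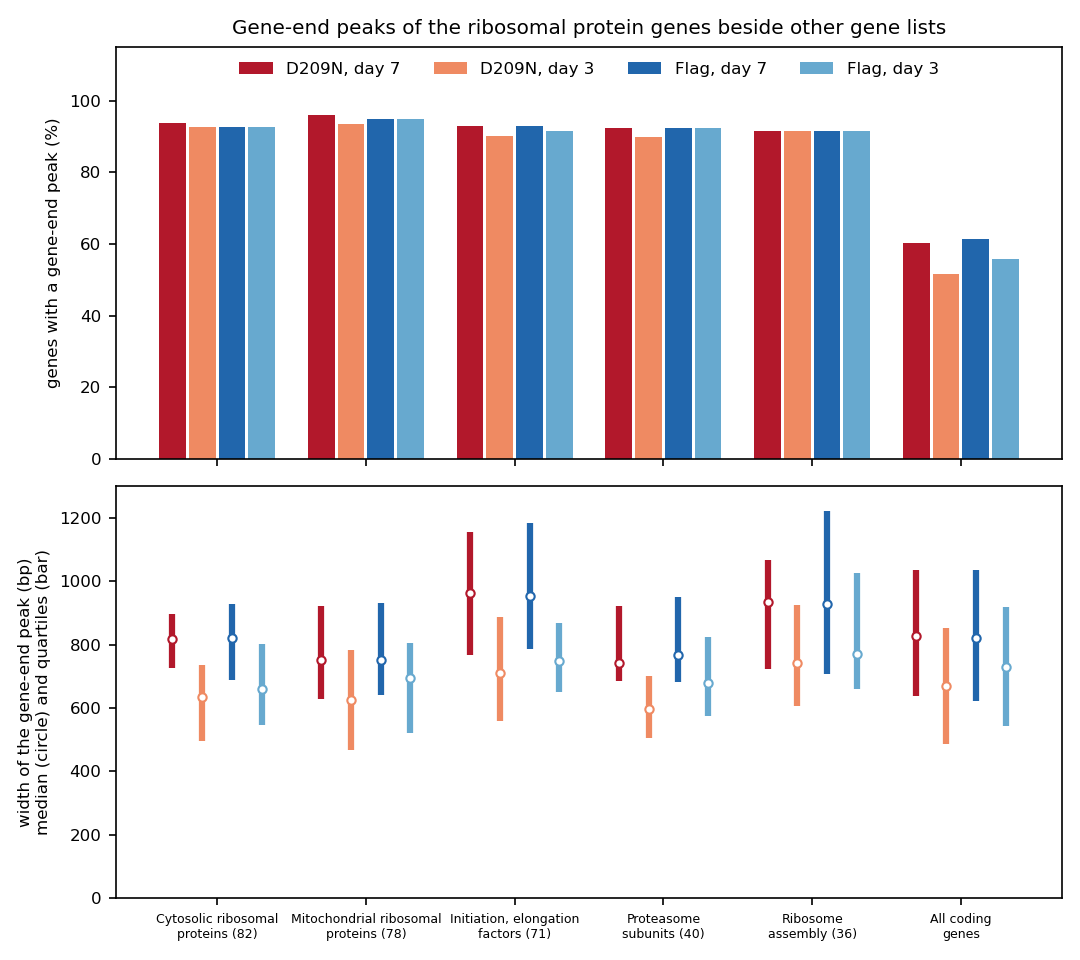
Percent of genes with a gene-end peak (upper panel) and width of that peak in bp (lower panel; circles are medians, bars run from the lower to the upper quartile) for the ribosomal protein genes, 4 other gene lists and all coding genes, in each of the 4 peak lists. The ribosomal protein genes stand at 92.7% to 93.9% in the upper panel and, in the lower panel, have a median width close to that of all coding genes with a shorter bar.

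Marker genes did not settle the cell type from these lists. Gene-end peaks were listed for 6 of 7 fibroblast markers in D209N at day 7, 6 in D209N at day 3, 5 in Flag at day 7 and 5 in Flag at day 3, and for 3, 3, 2 and 3 of 7 pluripotency markers in the same lists. They were also listed for 2 of 3 blood markers, 1 of 3 endothelial markers and 0 of 3 keratinocyte markers in every list. The 7 pluripotency markers include the genes of Oct4 and Sox2, which were among the delivered factors. The lists held 40452 peaks in D209N at day 7, 29189 in D209N at day 3, 42439 in Flag at day 7 and 36375 in Flag at day 3, so widths and shares below move with lists of unequal length, and the part of that in each result was not tested.

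The peaks were of ordinary width, with a smaller interquartile range than over all coding genes but not than in every similar gene list. The median gene-end peak was 818 bp in D209N at day 7, 636 bp in D209N at day 3, 822 bp in Flag at day 7 and 661.5 bp in Flag at day 3. Over all coding genes with such a peak the medians were 828 bp, 670 bp, 820 bp and 729 bp in the same lists. The interquartile range was 172 bp in D209N at day 7, 239.75 bp in D209N at day 3, 239.75 bp in Flag at day 7 and 254.5 bp in Flag at day 3, against 399, 368, 414.25 and 376 bp over all coding genes. In proteasome subunit genes it was 237, 194.75, 267 and 251 bp in the same lists, smaller than in the family in both day 3 lists, and initiation and elongation factors had 216 bp in Flag at day 3. Of the members with a peak, 37 of 77 were wider than the coding median in D209N at day 7, 30 of 76 in D209N at day 3, 38 of 76 in Flag at day 7 and 24 of 76 in Flag at day 3. No more than 2 members in any list lay above the 90th percentile of coding genes.

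Small and large subunit genes were alike in width. The large subunit medians were 831 bp in D209N at day 7, 639 bp in D209N at day 3, 813 bp in Flag at day 7 and 656.5 bp in Flag at day 3. The small subunit medians were 804.5 bp, 633 bp, 835 bp and 675 bp in the same lists. Within 29 members lie snoRNA genes, 58 in all, which guide modification of ribosomal RNA. Those members had medians of 814, 613, 815 and 675 bp, against 830, 655, 833 and 648 bp in members without one, again in D209N at day 7 and day 3 and then Flag at day 7 and day 3.

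**Figure D2:**
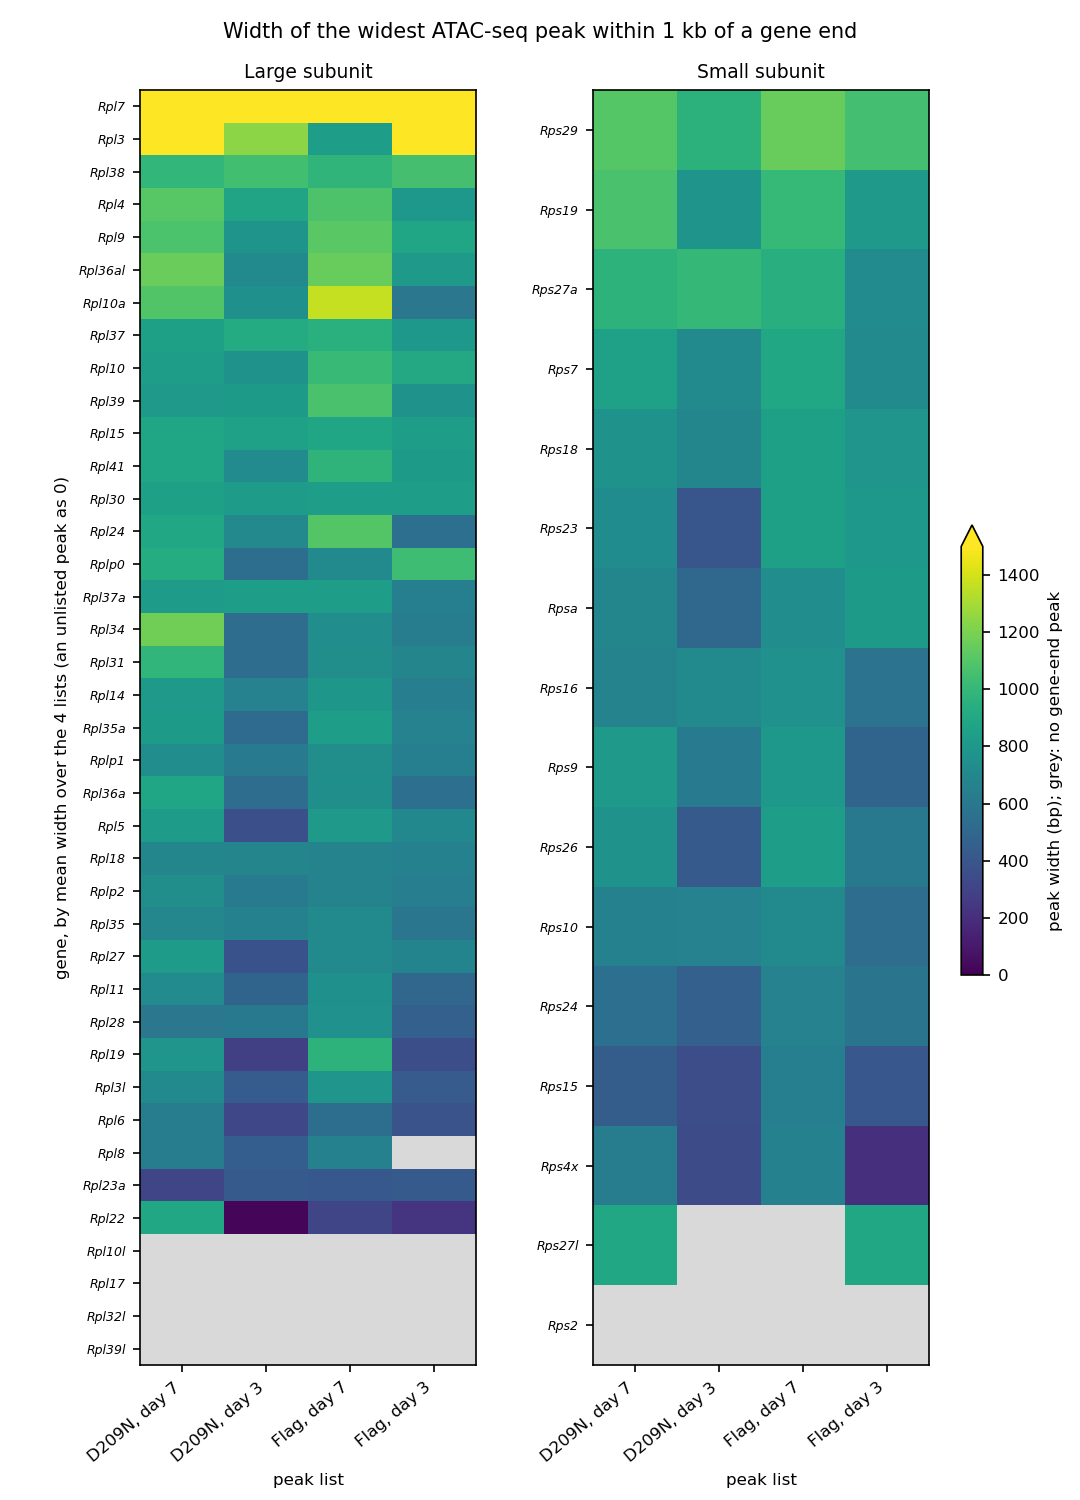
Width in bp of the widest gene-end peak of the genes reported by name (rows, large subunit left, small subunit right, ordered by mean width) in the 4 peak lists (columns), with grey where no gene-end peak was listed. Rpl7 and Rpl3 stand out at the wide end, day 7 columns are wider than day 3 columns in most rows, and the grey rows are the genes without a gene-end peak.

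Rpl7, which encodes a large subunit protein, had the widest peak in every list, at 1949 bp in D209N at day 7, 1603 bp in D209N at day 3, 1970 bp in Flag at day 7 and 1721 bp in Flag at day 3, and its peak also lay within 1 kb of an end of Rdh10. Rpl3, which lies near the peptidyl transferase centre, averaged 1289.75 bp over the 4 lists, with 2 peaks at opposite ends of the gene. Rps29, Rpl38 and Rpl4 followed with means of 1067.75, 1020.5 and 968.25 bp. For 23 members the peak also lay within 1 kb of an end of another coding gene, such as Lias beside Rpl9 and Mgat2 beside Rpl36al. These 23 had medians of 854, 686, 882 and 725 bp, against 811, 612, 798 and 631 bp in the 54 others with a peak, in D209N at day 7, D209N at day 3, Flag at day 7 and Flag at day 3.

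The narrowest means were those of Rpl22 (366.25 bp), Rpl23a (394.25 bp), Rps4x (459.25 bp), Rps15 (464 bp) and Rpl6 (470 bp). Rpl23a, a protein at the exit of the nascent chain tunnel, was narrow throughout, at 315 bp in D209N at day 7, 424 bp in D209N at day 3, 411 bp in Flag at day 7 and 427 bp in Flag at day 3. Rpl22 is a special case of annotation. Its RefSeq record has an outer start with no peak over it and a second start inside the gene, and the peak at the inner start was 898 bp in D209N at day 7, 684 bp in D209N at day 3, 878 bp in Flag at day 7 and 712 bp in Flag at day 3. That peak came within 1 kb of the outer end in D209N at day 7 alone, so the gene-end values of 29, 315 and 223 bp in the other lists are those of a small peak at the far end. The gene-end counts below include Rpl22 with these values, and it is named where it is among the members past a fold.

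The promoters of wide and narrow members, and of members without a gene-end peak, are shown next to each other. Each line holds 170 bases before the start and 30 bases from it, 5′ to 3′ on the gene's strand, from RefSeq GRCm38.p6. Capitals mark the longest run of C or T between 15 bases before and 20 bases after the start. Among members with an entry, Rpl38 and Rpl4 have the widest gene-end means, and Rpl22 and Rps4x the narrowest. For Rpl22 the printed start is the inner one, whose peak is of ordinary width as given above, and for Rpl4 the day 3 values come from the far end of the gene. In Rpl38 and Rps4x the gene-end peak is the one at the printed start in every list.
Rpl38 (chr11:114668410-114668609, plus strand): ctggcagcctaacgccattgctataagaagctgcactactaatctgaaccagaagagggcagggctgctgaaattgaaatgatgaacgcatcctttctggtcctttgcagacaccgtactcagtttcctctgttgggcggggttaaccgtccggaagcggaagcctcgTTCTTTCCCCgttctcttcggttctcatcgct
Rpl4 (chr9:64173217-64173416, plus strand): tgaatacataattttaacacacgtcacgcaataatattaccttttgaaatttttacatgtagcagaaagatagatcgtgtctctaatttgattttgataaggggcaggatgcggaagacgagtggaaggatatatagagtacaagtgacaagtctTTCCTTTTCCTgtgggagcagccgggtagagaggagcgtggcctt
Rpl22 (chr4:152325556-152325755, plus strand): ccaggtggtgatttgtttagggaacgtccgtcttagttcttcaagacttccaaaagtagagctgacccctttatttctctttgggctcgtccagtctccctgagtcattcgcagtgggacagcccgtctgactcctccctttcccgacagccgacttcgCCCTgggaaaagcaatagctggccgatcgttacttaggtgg
Rps4x (chrX:102189362-102189561, minus strand): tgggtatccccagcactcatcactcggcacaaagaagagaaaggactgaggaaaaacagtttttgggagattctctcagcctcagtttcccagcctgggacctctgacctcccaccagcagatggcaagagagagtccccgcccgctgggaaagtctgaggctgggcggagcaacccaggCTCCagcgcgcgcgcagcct
Rps2 (chr17:24719893-24720092, plus strand): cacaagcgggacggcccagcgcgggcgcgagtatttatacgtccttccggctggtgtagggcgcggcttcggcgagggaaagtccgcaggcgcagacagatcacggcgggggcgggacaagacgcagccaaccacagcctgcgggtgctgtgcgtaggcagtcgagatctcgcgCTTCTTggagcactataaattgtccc
Rpl39l (chr16:10170058-10170257, plus strand): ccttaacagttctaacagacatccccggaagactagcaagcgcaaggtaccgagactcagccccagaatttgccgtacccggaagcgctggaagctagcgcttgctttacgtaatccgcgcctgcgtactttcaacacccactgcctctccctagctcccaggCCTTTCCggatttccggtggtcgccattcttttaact
Rpl39 (chrX:37085193-37085392, minus strand): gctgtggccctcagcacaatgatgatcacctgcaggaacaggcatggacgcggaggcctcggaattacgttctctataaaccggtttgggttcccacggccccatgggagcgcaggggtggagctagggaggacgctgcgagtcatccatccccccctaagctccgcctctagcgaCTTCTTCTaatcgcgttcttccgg
Rpl10l (chr12:66284372-66284571, minus strand): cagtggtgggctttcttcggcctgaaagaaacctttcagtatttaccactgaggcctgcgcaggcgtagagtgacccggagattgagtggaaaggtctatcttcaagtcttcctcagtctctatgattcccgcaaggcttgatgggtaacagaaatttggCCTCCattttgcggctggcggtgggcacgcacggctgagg
The longest run had 10 bases in Rpl38 and 11 in Rpl4, against 4 in Rpl22 and 4 in Rps4x. It had 6 bases in Rps2, 7 in Rpl39l, 8 in Rpl39 and 5 in Rpl10l. A run of 7 or more thus occurred with a wide peak in Rpl38, with none in Rpl39l and with an ordinary one in Rpl39.

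Of the 5 members without a gene-end peak in any list, 3 lacked any peak near the gene and 2 had one further inside. Rpl10l, a testis-expressed autosomal copy of the X-linked Rpl10, had its nearest peak at 125498 bp from a gene end in D209N at day 7, 125317 bp in D209N at day 3, 125582 bp in Flag at day 7 and 102036 bp in Flag at day 3. Rpl32l had its nearest peak 37469, 37603, 37398 and 37520 bp away in D209N at day 7, D209N at day 3, Flag at day 7 and Flag at day 3. Rpl39l, a copy of the X-linked Rpl39 with highest expression in testis, had its nearest peak 17718, 17903, 17824 and 17799 bp away in the same lists.

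The parent genes of these copies had a peak throughout. Rpl39, a small protein of the nascent chain tunnel, had a peak of 814 bp in D209N at day 7, 818 bp in D209N at day 3, 1067 bp in Flag at day 7 and 768 bp in Flag at day 3. Rpl10, which joins the large subunit at a late step of its assembly, had 841 bp in D209N at day 7, 765 bp in D209N at day 3, 1012 bp in Flag at day 7 and 905 bp in Flag at day 3. Together with Rpl36a and Rps4x they form the 4 X-linked members, whose median was 827.5 bp in D209N at day 7, 652 bp in D209N at day 3, 878.5 bp in Flag at day 7 and 659 bp in Flag at day 3.

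Rps2 and Rpl17 lacked a gene-end peak because the rule measures from the outermost annotated ends. The peak over the RefSeq start of Rps2, a small subunit protein at the mRNA entry site, was 712 bp in D209N at day 7, 454 bp in D209N at day 3, 783 bp in Flag at day 7 and 632 bp in Flag at day 3, and it lay 1508 to 1563 bp inside the gene record. A peak inside Rpl17, which lines the nascent chain tunnel, was 763 bp, 734 bp, 767 bp and 546 bp in the same lists and lay 1217 to 1242 bp from the nearest end. Neither gene was without a listed peak.

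Another paralogue, Rpl3l, counts as present under the rule by way of its neighbour. This striated muscle form of Rpl3 had a gene-end peak of 718 bp in D209N at day 7, 438 bp in D209N at day 3, 784 bp in Flag at day 7 and 430 bp in Flag at day 3. The peak lies at the far end of the gene, within 1 kb of an end of Msrb1, and the nearest peak to the Rpl3l start was at least 3295 bp away in every list. Rps27l, known as a p53 target, had peaks of 896 bp in D209N at day 7, 763 bp in D209N at day 3, 850 bp in Flag at day 7 and 900 bp in Flag at day 3 at its start. That peak fell outside the 1 kb window, at 1095 bp in D209N at day 3 and 1052 bp in Flag at day 7, so its absence there is a matter of the window. Rpl36al, the widely expressed copy of Rpl36a, had 1158 bp, 711 bp, 1153 bp and 812 bp in D209N at day 7, D209N at day 3, Flag at day 7 and Flag at day 3.

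Only Rpl8, a core protein of the large subunit, lacked any nearby peak in some lists and not others. Its gene-end peak was 631 bp in D209N at day 7, 450 bp in D209N at day 3 and 659 bp in Flag at day 7, while in Flag at day 3 the nearest listed peak was 4115 bp away. Peak names carry a serial number, and in Flag at day 3 there was 1 number with no listed peak between the neighbours that flank Rpl8.

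Ribosomal protein pseudogenes, which are mostly processed copies without the parental promoter, were listed with a gene-end peak for 8 of 317 (2.52%) in D209N at day 7, 7 (2.21%) in D209N at day 3, 10 (3.15%) in Flag at day 7 and 6 (1.89%) in Flag at day 3. All 10429 pseudogenes stood at 4.01%, 3.03%, 4.25% and 3.59% in the same lists. The placing of reads that match both a gene and its pseudogenes is not described in the labels.

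Measured from the start site itself, 58 of the 62 genes with an entry had a peak within 1 kb in D209N at day 7, 57 in D209N at day 3, 58 in Flag at day 7 and 58 in Flag at day 3. Over 17492 coding genes with an entry the shares were 62.3%, 54.3%, 63% and 58.2% in those lists. The 4 genes without one in any list were Rpl3l, Rpl10l, Rpl32l and Rpl39l. The remaining case was Rpl4, another protein of the nascent chain tunnel, whose start-site peak was 1111 bp in D209N at day 7, was unlisted in D209N at day 3, and was 1083 bp in Flag at day 7 and 384 bp in Flag at day 3. In Flag at day 3 a second fragment of 135 bp lay 337 bp from the first, so the region listed as 1 wide peak at day 7 was broken up or missing at day 3. Its gene-end peak at D209N day 3, of 877 bp, stands at the far end. Snapc5 and Zwilch each had an end within 1 kb of a gene-end peak of Rpl4, counted over both ends of the gene.

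The start lay inside the peak in nearly all cases. It did so for 56 of 58 peaks (96.6%) in D209N at day 7, 54 of 57 (94.7%) in D209N at day 3, 57 of 58 (98.3%) in Flag at day 7 and 55 of 58 (94.8%) in Flag at day 3, against 90.6%, 86.5%, 90.5% and 89% over coding genes. From the start, the median peak reached 384 bp upstream and 380.5 bp downstream in D209N at day 7, and 350 bp upstream and 244 bp downstream in D209N at day 3. In Flag it reached 397.5 bp upstream and 407.5 bp downstream at day 7, and 348 bp upstream and 248.5 bp downstream at day 3. Over coding genes the downstream reach was longer, at 444 bp in D209N at day 7, 350 bp in D209N at day 3, 448 bp in Flag at day 7 and 384 bp in Flag at day 3, and the upstream reach shorter, at 358, 312, 350 and 331 bp. The median peak centre of the family lay at -22.25 bp from the start in D209N at day 7, -48 bp in D209N at day 3, 1.75 bp in Flag at day 7 and -51.75 bp in Flag at day 3, where negative values are upstream. Over coding genes it lay at 46, 21.5, 52 and 28 bp, downstream of the start in every list.

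**Figure D3:**
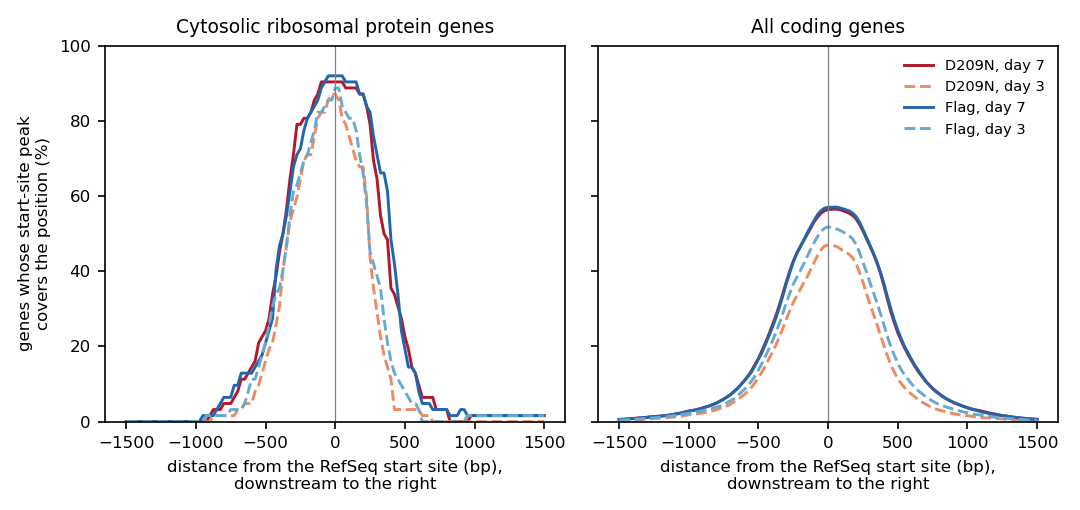
Percent of genes whose start-site peak covers each position, against distance from the RefSeq start in bp, for 62 ribosomal protein genes (left) and 17492 coding genes (right) in the 4 lists (solid, day 7; dashed, day 3). On the left the day 7 curves lie mostly above the day 3 curves on both sides of the start, with the wider gap downstream, where the median reach was 380.5 and 407.5 bp at day 7 and 244 and 248.5 bp at day 3.

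Between day 7 and day 3 the peaks of most members differed in width in both arms. In D209N, 66 of 76 gene-end peaks were wider at day 7 (86.8%, against 89.2% of coding genes), with a median log2 width ratio, day 7 over day 3, of 0.38 in the family and 0.35 over coding genes. In Flag, 63 of 75 were wider at day 7 (84%, against 78.5% of coding genes), with a median log2 ratio of 0.30 in the family and 0.19 over coding genes. A peak at least 1.5-fold wider at day 7 was found for 22 members in D209N (28.9%), where 29.6% of coding genes passed that fold. In Flag it was found for 14 (18.7%), where 17% did. The 22 include Rpl22 and Rplp0, whose day 7 and day 3 values are of different peaks. At least 1.5-fold narrower at day 7 were 0 members in D209N, where 0.56% of coding genes were, and 1 in Flag, where 1.85% were. The 1 in Flag was Rpl3, whose day 7 and day 3 values are of opposite gene ends. These gene-end shares of the family past the fold thus lay near the background. A day 7 list with wider peaks across the genome cannot be told apart from a change at these genes.

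The start-site peaks gave the same direction. In D209N, 49 of 57 were wider at day 7 (86%, against 89.2% of coding genes), and in Flag 53 of 58 were (91.4%, against 79.1%). Their median log2 ratio was 0.46 over 57 members in D209N, against 0.34 over coding genes, and 0.33 over 58 members in Flag, against 0.19. At day 7 the start-site peak was wider in both arms for 46 of 57 members (80.7%), against 72.1% of coding genes. For 2 of the 57 members it was narrower in both, against 353 of 9321 coding genes, a similar share. It was wider by 1.5-fold or more in both arms for 4 members (7.02%), against 8.61% of coding genes. Counted in each arm, 21 of 57 start-site peaks were at least 1.5-fold wider at day 7 in D209N (36.8%, against 28.9% of coding genes). In Flag 12 of 58 were (20.7%, against 16.5%).

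The added width lay mostly downstream of the start. In D209N the median edge lay 55 bp further upstream and 151 bp further downstream at day 7 than at day 3, over 53 members whose start was inside the peak on both days, and 50 of them reached further downstream. Coding genes had 53 bp upstream and 89.5 bp downstream. In Flag the medians were 33 bp upstream and 107 bp downstream over 55 members, of which 54 reached further downstream, against 24 and 53 bp over coding genes.

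Rps4x, the X-linked small subunit protein, had the largest ratio at its start site in Flag. Its peak was 627 bp in D209N at day 7 and 350 bp in D209N at day 3, and it was 658 bp in Flag at day 7 and 202 bp in Flag at day 3, ratios of 1.79-fold and 3.26-fold. Rpl10a had 1092 bp at day 7 and 753 bp at day 3 in D209N, and 1369 bp at day 7 and 596 bp at day 3 in Flag, 2.3-fold in Flag. Rpl24, the gene of the mouse Belly spot and tail mutation, had 896 and 705 bp in D209N at day 7 and day 3, and 1100 and 549 bp in Flag at day 7 and day 3, 2.0-fold in Flag. Each of the 3 was wider at day 7 in both arms.

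The largest gene-end ratios apart from that of Rpl22 in D209N and Rps4x in Flag were those of Rpl19, with 781 bp in D209N at day 7, 285 bp in D209N at day 3, 970 bp in Flag at day 7 and 362 bp in Flag at day 3, 2.74-fold in D209N and 2.68-fold in Flag. That peak covered neither RefSeq start of Rpl19 and also lay within 1 kb of an end of Cacnb1. The widest peak at a start in the table was 795, 421, 871 and 600 bp for Rpl19 in the same lists. Its ratios, day 7 over day 3, were 1.89-fold in D209N and 1.45-fold in Flag.

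In D209N the largest start-site ratios were those of Rps18, Rpl18, Rpl41, Rpl5 and Rpl27. The Rps18 peak within 1 kb of the start was 765 bp in D209N at day 7, 137 bp in D209N at day 3, 764 bp in Flag at day 7 and 566 bp in Flag at day 3. The 137 bp interval did not cover the start, while the peaks of the other lists did. Rpl18 had 596 bp, 234 bp, 749 bp and 328 bp at its start in the same lists, while a second peak at its outer end held 686, 683, 672 and 657 bp. The Rpl41 value comes partly from a neighbouring peak near Zc3h10 that came within 1 kb of the start in some lists. The peak over the Rpl41 start itself was 524 bp in D209N at day 7, 346 bp in D209N at day 3, 493 bp in Flag at day 7 and 337 bp in Flag at day 3.

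Rpl5 and Rpl11 form, with the 5S ribosomal RNA, the particle that binds Mdm2 when ribosome assembly fails. Rpl5 had 831 bp in D209N at day 7, 369 bp in D209N at day 3, 813 bp in Flag at day 7 and 701 bp in Flag at day 3. Rpl11 had 726 bp, 481 bp, 753 bp and 493 bp in the same lists. Both were wider at day 7 in both arms, Rpl5 by 2.25-fold in D209N and 1.16-fold in Flag and Rpl11 by 1.51-fold in D209N and 1.53-fold in Flag.

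The mouse counterparts of 9 human genes mutated in Diamond-Blackfan anaemia, an inherited failure of red cell production, all had a gene-end peak in every list. Their median was 774 bp in D209N at day 7, 481 bp in D209N at day 3, 813 bp in Flag at day 7 and 608 bp in Flag at day 3. Rps19, the most often mutated of them, had 1069 bp in D209N at day 7, 777 bp in D209N at day 3, 1002 bp in Flag at day 7 and 813 bp in Flag at day 3. Rps10 had 662 bp in D209N at day 7, 666 bp in D209N at day 3, 710 bp in Flag at day 7 and 535 bp in Flag at day 3, so it was 0.99-fold in D209N and 1.33-fold in Flag, day 7 over day 3. Rps26 had 772, 423, 835 and 608 bp in the same lists, 1.82-fold in D209N and 1.37-fold in Flag. Rps7 had 860, 714, 894 and 712 bp, Rps24 had 547, 459, 666 and 576 bp, and Rpl35a had 818, 524, 833 and 666 bp.

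The stalk proteins Rplp0, Rplp1 and Rplp2 recruit elongation factors to the large subunit. Rplp1 had 737 bp in D209N at day 7, 610 bp in D209N at day 3, 742 bp in Flag at day 7 and 646 bp in Flag at day 3, and Rplp2 had 742, 613, 670 and 639 bp. The start-site peak of Rplp0 was 743 bp in D209N at day 7, 541 bp in D209N at day 3, 711 bp in Flag at day 7 and 606 bp in Flag at day 3. All 3 were wider at day 7 in both arms at the start or, for Rplp1, at the gene end.

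The steadiest gene-end peaks, by the ratio of the widest to the narrowest list, were those of Rpl30 (1.03-fold), Rpl18 at its outer end (1.04-fold), Rpl15 (1.05-fold) and Rpl38 (1.07-fold). Rpl38, known for its part in translating Hox mRNAs in the mouse embryo, had 995 bp in D209N at day 7, 1046 bp in D209N at day 3, 984 bp in Flag at day 7 and 1057 bp in Flag at day 3. Its promoter, printed above, has a pyrimidine run through the start. Rpl15 had 887, 856, 882 and 841 bp, with the long pyrimidine run shown first.

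A few members were slightly narrower at day 7 in D209N alone. There Rpl37 had 854 bp at day 7 and 923 bp at day 3, and Rps16 had 670 bp at day 7 and 714 bp at day 3. Both were wider at day 7 in Flag, Rpl37 with 953 bp at day 7 and 798 bp at day 3 and Rps16 with 760 bp at day 7 and 571 bp at day 3. Rpl23a, given above, was narrower at day 7 in both arms, at 0.74-fold in D209N and 0.96-fold in Flag. Its ratio in D209N was the lowest gene-end ratio between days in that arm.

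**Figure D4:**
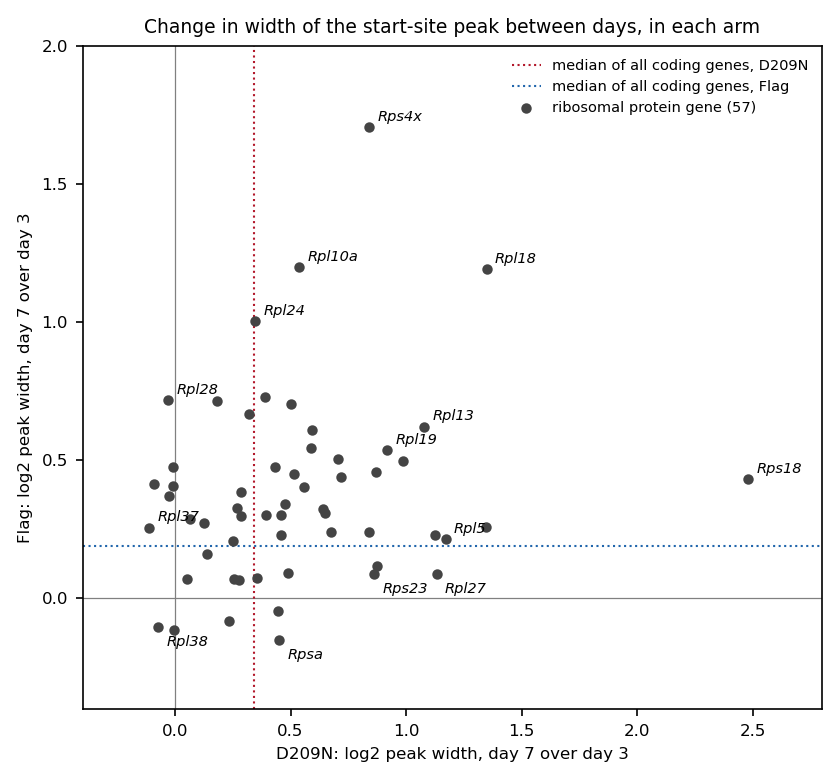
Log2 ratio of start-site peak width, day 7 over day 3, in D209N (x axis) and Flag (y axis) for the 57 members with such a peak in all 4 lists, with the coding-gene medians as dotted lines. Most points lie above 0 on both axes, Rps18 lies far to the right at 2.48 and Rps4x highest at 1.70, while Rpl38 lies just below 0 on both. The Rps18 peak in D209N at day 3 did not cover its start.

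Between the arms, widths were close at day 7 and slightly lower in D209N at day 3. At day 7 the median log2 width ratio, D209N over Flag, was -0.01 in the family and 0 over coding genes, and 35 of 76 members were wider in D209N (46.1%, against 49.8% of coding genes). At least 1.5-fold wider in D209N were 3 members (3.95%, against 3.65% of coding genes) and narrower were 0 (against 3.42%). The 3 were Rpl22 and Rpl3, where different peaks were measured, and Rpl34. In Rpl3 the lower peak was listed in pieces in Flag, so the value there is the 842 bp peak at the upper end. At day 3 the median was -0.07 in the family and -0.14 over coding genes, and 29 of 75 members were wider in D209N (38.7%, against 28.8%). At least 1.5-fold wider in D209N was 1 member (1.33%, against 2.32%) and narrower were 6 (8%, against 14.4%). Among the 6 were Rpl22 and Rplp0, and for Rplp0 different peaks were measured. From the start sites the day 3 medians were -0.15 in the family and -0.13 over coding genes. The D209N list at day 3 was also the shortest, with 29189 peaks against 36375 in Flag, and the part of list length in the narrower peaks was not tested.

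Gene-end peaks were rarely listed in a single arm. At day 7, 1 member was listed in D209N alone and 0 in Flag alone, where 0.973% and 2.02% of coding genes were. At day 3, 1 member (Rpl8) was listed in D209N alone and 1 (Rps27l) in Flag alone, where 0.809% and 5.03% of coding genes were. The day 7 case was Rps27l too, at the edge of the window as described above. Between days, 1 member was listed at day 7 alone and 0 at day 3 alone in D209N, where 9.02% and 0.32% of coding genes were, and in Flag 1 and 1, where 6.23% and 0.704% were.

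At day 3 the largest differences between arms were of members narrower in D209N. At the start sites Rps18 stood lowest at 0.24-fold, with 137 bp in D209N, an interval that did not cover the start, and 566 bp in Flag. Rpl41 was next at 0.42-fold. That value rests on the neighbouring peak described above, since the peak over the Rpl41 start was 346 bp in D209N and 337 bp in Flag. Apart from Rpl22 and Rplp0, whose second peak entered the window in some lists, the lowest gene-end ratios were those of Rps23, Rpl5 and Rpl27. Rps23, a protein of the decoding centre, had 401 bp in D209N and 802 bp in Flag at day 3, 0.50-fold, and 729 bp in D209N and 852 bp in Flag at day 7. Rpl27 had 379 bp in D209N and 677 bp in Flag at day 3, 0.56-fold, and 831 bp in D209N and 720 bp in Flag at day 7. Rpl5, given above, stood at 0.53-fold at day 3 and 1.02-fold at day 7. The Rpl5 peak at day 3 began 68 bp before the lower gene end in D209N and 77 bp before it in Flag, and ended 300 bp inside the gene in D209N and 623 bp inside in Flag, so the difference lay at the inner edge. The Rpl27 peak likewise ended 234 bp inside the gene in D209N and 503 bp inside in Flag. Rps4x went the other way at day 3, at 1.73-fold, with 350 bp in D209N and 202 bp in Flag. Rps27a followed at 1.38-fold, Rpl28 with 608 bp in D209N and 460 bp in Flag, Rpl37a with 843 bp in D209N and 646 bp in Flag, and Rps9 with 619 bp in D209N and 482 bp in Flag, all at day 3.

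At day 7 the largest start-site ratios between arms were those of Rpl34 and Rps15. Rpl34 had 1176 bp in D209N and 738 bp in Flag at day 7, 1.59-fold, and 539 bp in D209N and 630 bp in Flag at day 3. Rps15, which takes part in export of the small subunit from the nucleus, had 444 bp in D209N and 648 bp in Flag at day 7, 0.69-fold, and 356 bp in D209N and 408 bp in Flag at day 3. Rpl31 followed on the wider side with 987 bp in D209N and 739 bp in Flag at day 7, and on the narrower side Rpl39 with 814 bp in D209N and 1067 bp in Flag and Rpl28 with 596 bp in D209N and 756 bp in Flag.

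Ribosomal proteins whose symbols fall outside the rule also had gene-end peaks. Fau, made as a fusion to a ubiquitin-like protein, had 661 bp in D209N at day 7, 357 bp in D209N at day 3, 652 bp in Flag at day 7 and 393 bp in Flag at day 3. Rps27a, a ubiquitin fusion that the rule does include, had 971, 1000, 941 and 725 bp in the same lists. Rack1, a scaffold protein of the small subunit, had 845, 877, 1038 and 918 bp. Fau was wider at day 7 in both arms, and Rack1 was wider at day 7 in Flag only.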

How the data were processed

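For each group the authors deposited 1 ATAC-seq peak list, whose values are of another kind than counts: the chromosome, start and end of an interval and a name, with no score. Per the submitters' processing notes, CASAVA and Bowtie2 2.3.2 were among the tools and mm10 and GRCm38.p5 were the builds. The labels name no peak caller, threshold, insertion offset or way of joining the 2 replicates. Lists were matched to groups by arm and day in the peak names, which all carry rep1. The 3 mitochondrial intervals of each list were dropped.

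Genes and start sites came from RefSeq GRCm38.p6, which shares its main chromosomes with the files' build. A peak counted at a gene end when it had at least 1 bp within 1 kb of either end, and the widest was used. A start-site peak was defined likewise around any start in the promoter table. This alternative, and following the same peak through the lists, were added after seeing the data. Python 3.11.15, numpy 2.4.6, pandas 2.3.3 and matplotlib 3.10.9 were used, and the scripts were tested on simulated intervals. The 4 comparisons were described by counts and medians beside all coding genes, with no test, since each group has 1 list. Read depth, and so the precision of a width, is unknown. The text names members absent from a list, the 5 widest and 5 narrowest, the 5 largest and smallest gene-end ratios of each comparison and the role lists, and others, start-site extremes included, chosen after their values were seen. The members and lists were chosen with earlier results of these data known. RNA-seq, R-loop and CLIP-seq samples were not analysed here. Values of a few single genes, some of which this rule names, are not reported here, though counts and medians include them.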

Additional observations from a re-analysis of the deposited data

Results flagged for a closer look

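In 3 members the widest gene-end peak differed between days in opposite directions in the 2 arms by 10% or more, and with 1 list per group these differences were not tested. This rule was not applied to the other coding genes. By any amount, 9 of 75 members were wider at day 7 in D209N and narrower in Flag, and 7 were the reverse. Over coding genes these were 1920 and 729 of 11080, so opposite directions were not particular to the family. Rpl3 was 1.246-fold as wide at day 7 as at day 3 in D209N and 0.55-fold in Flag. Its peak beyond the lower gene end was 1544 bp in D209N at day 7, 1239 bp in D209N at day 3 and 1534 bp in Flag at day 3, and in Flag at day 7 the same stretch was listed as 632 and 474 bp with 328 bp between them. The peak at the upper end was 909 bp in D209N at day 7, 484 bp in D209N at day 3, 842 bp in Flag at day 7 and 727 bp in Flag at day 3. In Flag at day 7 this upper peak was the widest, so the 0.55-fold compares opposite ends of the gene.

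Rplp0 was 1.72-fold as wide at day 7 in D209N and 0.69-fold in Flag. A second peak near Gcn1, of 929, 917, 925 and 1034 bp in D209N at day 7, D209N at day 3, Flag at day 7 and Flag at day 3, lay inside the 1 kb window in D209N at day 7 and Flag at day 3 alone. Rpsa, the laminin receptor and small subunit protein, was 1.37-fold as wide at day 7 in D209N and 0.90-fold in Flag. It had a single peak at its start, with 688 bp in D209N at day 7, 503 bp in D209N at day 3, 734 bp in Flag at day 7 and 815 bp in Flag at day 3.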

How the results depend on the processing

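No paired analysis was possible because each group has 1 list, and no replicate could be left out for the same reason. Medians of width and of log2 ratio, and counts of members with a gene-end peak, moved by less than the limits set for them under every alternative run (other windows, start sites, added symbols, unshared peaks, summed or nearest peak). Those limits were wide. For a count it was a 1.5-fold ratio, which a count near 76 of 82 genes can hardly leave. For a median it was an interval from the ranks of the members' values, which measures no spread between samples. The day 3 median log2 ratio between arms went from -0.07 to -0.15 with any start site and stayed within it. Counts past the fold, and of members listed on 1 side alone, did move. Under the alternatives they were made for the members only, with no share over coding genes beside them. They are therefore not read as results about the family. By any amount, 89.2% of coding genes were wider at day 7 in D209N and 78.5% in Flag. With a width ratio of 5 to 4 in place of 1.5-fold, D209N over Flag had 6 members wider and 5 narrower at day 7 and 8 and 15 at day 3, and day 7 over day 3 had 42 and 1 in D209N and 37 and 2 in Flag. With 2-fold these were 1 wider at day 7 between arms (Rpl22), 0 wider and 2 narrower at day 3, 6 wider in D209N and 4 wider and 0 narrower in Flag.

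Members wider in D209N at day 7 fell to 1 with a peak touching the end base, the 500 bp window, the start end alone, the nearest peak and any start site. Narrower at day 7 in Flag were 0 under those 5 and 3 with summed width. Narrower in D209N were 11 at day 3 with summed width and 1 at day 7 with the nearest or the followed peak, and wider at day 3 were 2 with the nearest peak. Members listed on 1 side alone were, between arms at day 7, 0 with the 500 bp or 2 kb window, the peak centre or any start, 2 with the start end and 3 with peaks above the median width. At day 3 they were 1 with both windows, the centre and any start and 12 with wide peaks. Between days in D209N they were 3 with the end base or the start end, 2 with 500 bp, 0 with 2 kb and 17 with wide peaks, and in Flag 1 with 2 kb or the start end, 0 with any start and 12 with wide peaks. The sign turned for Rpl3 in Flag, day 7 over day 3 (log2 0.21 with the end base, 500 bp or nearest peak), for Rps9 in Flag with 2 kb (-0.47) and for Rpl22 between arms at day 7 with the nearest or followed peak (-1.42), where another peak was measured.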
